A study of Mus musculus with 38 samples.

Results

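The 78 nuclear genes that encode proteins of the mitochondrial ribosome were followed through 38 messenger RNA libraries of mouse liver. They were chosen by name: every gene whose symbol begins with Mrpl or Mrps and a digit, which gave 49 Mrpl genes for the large subunit and 29 Mrps genes for the small subunit among the 21954 genes of the table. All libraries came from the liver of female wild-type C57BL/6 mice, with no altered allele in any group. There were 3 libraries from fasted mice at each of 6, 14 and 22 h. Calorie-restricted mice were sampled at 0 h (2 libraries), 6 h (3), 14 h (3) and 22 h (4), and at zeitgeber time 18 gave another 3 libraries from calorie-restricted mice that missed their meal and 3 from calorie-restricted mice that were fed. Ad libitum mice, which ate freely, were sampled at 0 h (3 libraries), 6 h (2), 14 h (3) and 22 h (3). What the hours were counted from is not given in the labels, nor whether replicates were separate animals, so the tests measure the spread between these libraries, which may be technical. The labelled age climbs along the sample list between 5 and 44 months, with no age common to any pair of groups, and was not used. Whole liver was used, so fewer cells of a type and less RNA per cell cannot be told apart.

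The mitochondrial ribosome makes the few proteins that mitochondrial DNA encodes, all of them core subunits of the respiratory chain and of ATP synthase. Its RNAs are transcribed inside the organelle, whereas its proteins are encoded in the nucleus, made in the cytosol and imported, so that both genomes must supply parts for each particle. The small subunit reads the messenger RNA and the large subunit joins the amino acids and releases the chain close to the inner membrane. Liver is rich in mitochondria, and fasting is known there to raise fatty acid oxidation and to lower the synthesis of cytosolic ribosomes. The symbols follow the subunits only in part. Mrps30 and Mrps18a encode proteins found in the large subunit, and Mrps36 encodes a protein now assigned to the 2-oxoglutarate dehydrogenase complex.

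Promoter sequence is shown for the 4 members that the results below turn on and that are plotted by library further on. RefSeq's table of promoters on GRCm38.p6 held 69 of the 78 members. Each line gives the 150 bases that end just before the first start that RefSeq's table lists for the gene, 5′ to 3′ on the gene's strand. These starts are not always the gene bounds of GENCODE M21 given with the values below. The window of Mrpl23 lies inside its GENCODE gene and those of Mrps25 and Mrps6 run into theirs, while that of Mrps27 ends just before its gene begins. Capitals mark motif letters on either strand, CCGGAAG for GABPA (CTTCCGG in reverse) and GGGCGG for SP1. GABPA, NRF1 and YY1 are transcription factors known to drive nuclear genes for mitochondrial proteins, and SP1 binds many promoters without a TATA box.

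Mrps27, chr13:99344636-99344785, plus strand: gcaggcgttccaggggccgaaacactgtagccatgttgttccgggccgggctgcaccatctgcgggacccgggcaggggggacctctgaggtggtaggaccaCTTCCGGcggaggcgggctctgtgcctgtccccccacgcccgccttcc

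Mrpl23, chr7:142532882-142533031, plus strand: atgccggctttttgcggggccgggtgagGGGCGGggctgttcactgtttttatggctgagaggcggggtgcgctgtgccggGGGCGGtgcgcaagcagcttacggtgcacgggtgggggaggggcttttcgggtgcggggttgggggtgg

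Mrps25, chr6:92184024-92184173, minus strand: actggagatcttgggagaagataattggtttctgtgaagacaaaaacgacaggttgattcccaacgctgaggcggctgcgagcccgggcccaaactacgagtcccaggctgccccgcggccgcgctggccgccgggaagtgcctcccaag

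Mrps6, chr16:92058186-92058335, plus strand: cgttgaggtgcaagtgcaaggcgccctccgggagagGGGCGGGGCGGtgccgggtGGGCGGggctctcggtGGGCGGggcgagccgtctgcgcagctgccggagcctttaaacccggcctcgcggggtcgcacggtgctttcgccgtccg

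The GABPA letters of Mrps27 lay 48 bases before the RefSeq start, from which all distances are counted. Mrpl23 held the SP1 letters at 69 and 122 bases and Mrps6 at 79, 95, 109 and 114 bases before the start, while the 150 bases of Mrps25 held none of the 5 motifs searched. Over the 250 bases before the start, 17 of the 69 member promoters (24.6%) held the GABPA letters, against 12.9% of the promoters of 10604 tested genes and 7.05% of all 27025 promoters in the table. The NRF1 letters CGCATGCG stood in 7 member promoters (10.1%), against 3.04% of tested and 1.58% of all promoters. The YY1 letters AAGATGGC stood in 4 (5.8%), against 1.87% and 1.59%. At least 1 of these 3 motifs was present in 25 member promoters (36.2%), against 16.9% of tested and 9.79% of all promoters. The SP1 letters stood in 33 member promoters (47.8%), between the shares of tested (56.6%) and of all promoters (32.9%). The letters AAGGTCA of ESRRA stood in 3 (4.35%), against 2.98% and 4.05%. No motif overlapped another in letters except where SP1 matches run into each other, as at the first pair in Mrps6. A match describes the letters in the window and is not a binding site.

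All members were expressed in every library, with 56 to 4397 counts per gene and library, and all 78 passed the filter on low counts that left 13786 genes for testing. Per transcript length, on the authors' rescaled TPM scale, the median over libraries was highest for Mrpl52, a protein with no bacterial counterpart, at 153. Mrpl12, which forms the flexible stalk of the large subunit, followed at 120, ahead of Mrpl34 at 104, Mrpl14 at 103, Mrpl30 at 103 and Mrps21 at 102. The lowest medians were those of Mrpl19 at 3.66, Mrpl47 at 9.70, Mrpl57 at 10.1 and Mrps25 at 10.2. Levels below are in counts scaled to the effective library total (CPM), which compare a gene between libraries but not 1 gene with another.

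The members shared short transcripts. Relative to the median gene, which was set to 1, their effective length had a median of 0.382, with quartiles of 0.249 and 0.563 and a range from 0.0993 for Mrpl52 to 1.93 for Mrpl19. A total of 74 of 78 (94.9%) lay below the median gene. When all genes were ranked by length and split into 5 groups of equal size, 58 members fell into the shortest class, 13 into the second, 6 into the third, 0 into the fourth and 1 into the longest.

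Libraries differed in how high short genes stood relative to long ones. The summed level of the 78 members ran from 1593 CPM in CR_6h replicate 2 to 3217 CPM in AL_14h replicate 3, a ratio of 2.02. In each of the 10 libraries with the highest sum, short genes were high relative to long genes (a negative rank correlation between a gene's deviation and its length), and in each of the 10 with the lowest sum they were low. The median deviation of the members from their mean over libraries spanned -0.55 to 0.59 on the log2 scale (SD 0.287, n = 38). With the length trend of each library removed it spanned -0.15 to 0.16 (SD 0.082, n = 38). The order of libraries by member level thus lay close to their order by length trend, as the plot of sums against that correlation shows. What gave the libraries their length trend was not tested. Each comparison of a pair of groups below gives the member count on the counts as deposited and, beside that, with the trend removed. For single genes, other gene lists and tests over several groups the second value is given only in part.

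**Figure D1:**
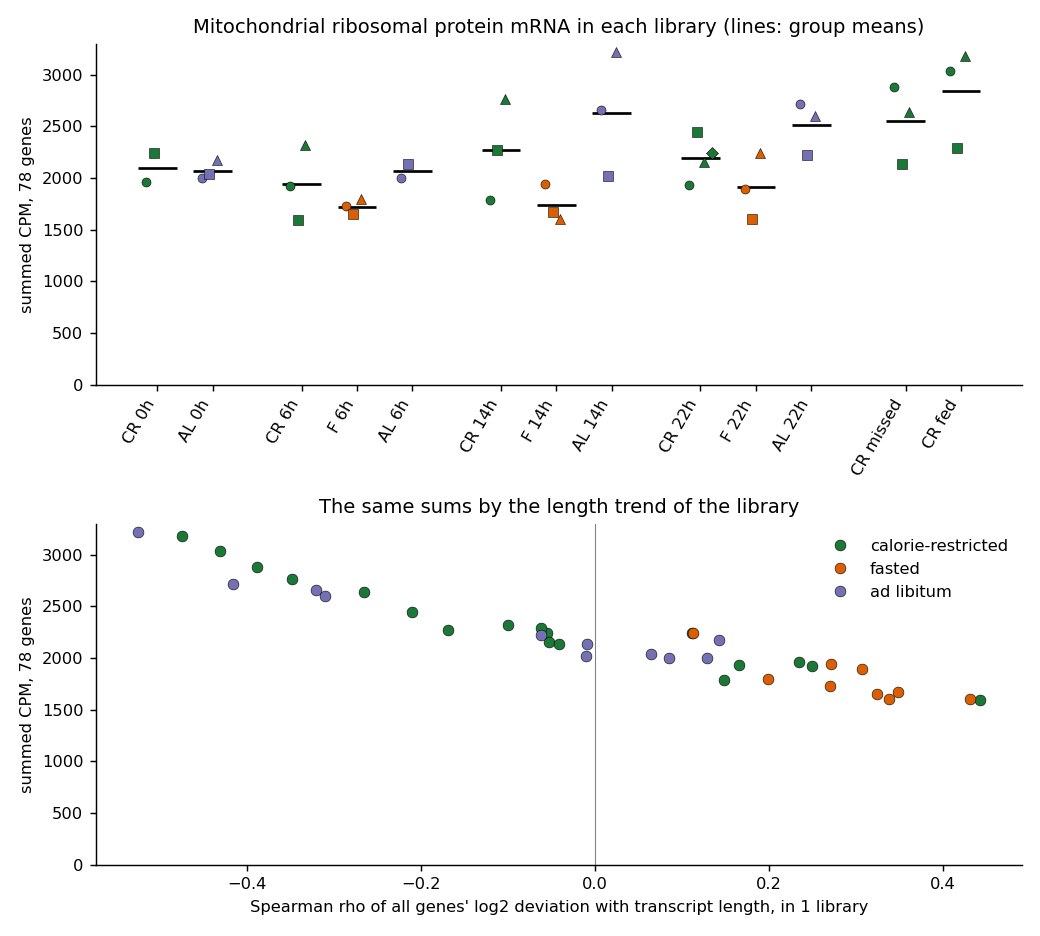
Upper panel: summed level of the 78 members (CPM, linear axis from 0) in each library, by group of diet and time; points are libraries, marker shapes are replicates and lines are group means. Lower panel: the same sums against the rank correlation of all genes' log2 deviation with transcript length in that library. The sums run from 3217 CPM at the most negative correlation to 1593 CPM at the most positive, and the 3 fasted groups hold the lowest means.

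By group, the summed member level averaged 1723 ± 72.5 CPM in fasted and 2069 ± 90.3 CPM in ad libitum livers at 6 h (SD, n = 3 and 2). At 14 h it averaged 1741 ± 176 CPM in fasted and 2633 ± 598 CPM in ad libitum livers, and at 22 h 1912 ± 320 CPM in fasted and 2515 ± 256 CPM in ad libitum livers (SD, n = 3 each). Calorie-restricted livers averaged 2100 ± 198 CPM at 0 h (SD, n = 2), 1947 ± 366 at 6 h, 2275 ± 488 at 14 h (SD, n = 3 each) and 2193 ± 212 at 22 h (SD, n = 4), and ad libitum livers at 0 h averaged 2071 ± 90.2 CPM (SD, n = 3). After the missed meal the sum averaged 2552 ± 384 CPM, against 2840 ± 478 CPM in fed calorie-restricted livers (SD, n = 3 each). The 3 ad libitum libraries at 14 h ran from 2021 to 3217 CPM, and their lowest was close to the highest fasted library, at 1941 CPM.

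Some libraries went against their labels. The clock genes of AL_0h replicate 2 and AL_22h replicate 2 ran opposite to those of the other libraries of their groups. AL_0h replicate 3, CR_14h replicate 3, CR_22h replicate 3 and CR_fed replicate 3 lay closest, over the 1000 most variable genes, to a library of another diet. Markers of hepatocytes summed to between 72916 and 165106 CPM in every library, and all 41 marker genes of hepatocytes and 7 other cell types passed the filter. Values without these libraries are given where they move a result.

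Fasted and ad libitum livers were compared at each shared time, which asks how mitoribosomal messenger RNA differs after a fast. At 14 h the members were lower as a group: 74 of 78 had a fold change below 0, 38 fell and 0 rose, with a median of -0.63 on the log2 scale. Of all genes tested, 12.7% fell. Both subunits took part, with 23 of 49 Mrpl and 15 of 29 Mrps genes called lower. In 31 of the 38 the libraries of fasted and ad libitum livers did not overlap. They did not overlap either in 92.1% of all genes called in this comparison, and, called or not, in 38 of 78 members and 38.3% of all genes. After the length trend was removed, 11 members were called lower (7.47% of all genes) and 2 higher (7.6% of all genes), and the median was -0.01. Of the 38, 10 were called lower either way: Mrpl14, Mrpl23, Mrpl35, Mrpl49, Mrpl50, Mrpl57, Mrps7, Mrps24, Mrps25 and Mrps27.

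**Figure D2:**
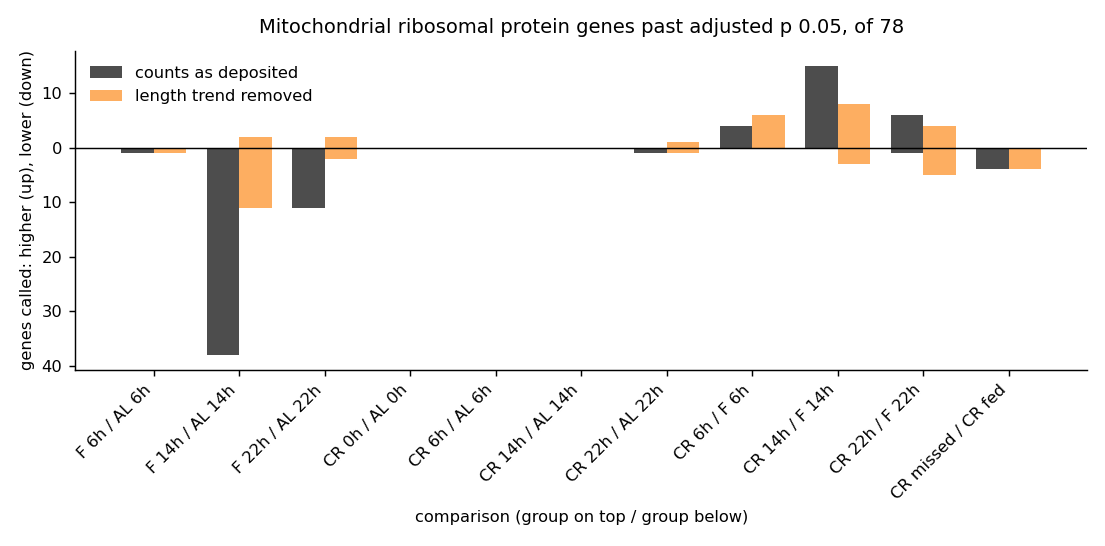
Number of members called higher (up) or lower (down) in each of the 11 comparisons (adjusted p below 0.05), on the counts as deposited and with the length trend removed. The count of 38 lower members in fasted livers at 14 h shrinks to 11 once the trend is removed, while after the missed meal it is 4 either way, with 2 genes in both counts.

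Genes of like length that are not members were lower too. In the shortest of these 5 classes, 28 of 58 members and 34.5% of all genes fell in fasted livers at 14 h, with medians of -0.68 and -0.63. In the second class it was 8 of 13 members and 15.9% of all genes, with medians of -0.58 and -0.20, and in the third 2 of 6 members and 8.43% of all genes, with medians of -0.57 and -0.02. The median of the shortest members thus stood near that of their length class, while the medians of the 13 and 6 longer members lay below theirs. Across the 78 members the rank correlation of fold change with length was 0.50, and across all tested genes with a length it was 0.474. These points share libraries, and no test was made of them.

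**Figure D3:**
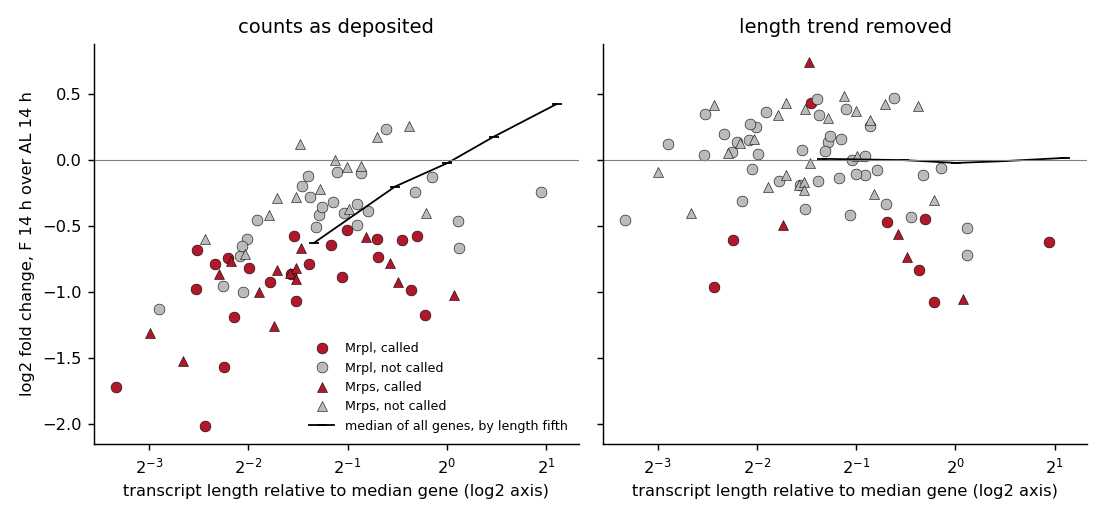
Log2 fold change of the 78 members at 14 h, fasted over ad libitum livers, against transcript length relative to the median gene (log2 axis), on the counts as deposited (left) and with the length trend removed (right). Circles are Mrpl and triangles Mrps genes, filled red where called, and the line joins the medians of all genes in each of the 5 length classes. On the left the line climbs with length. It spans relative lengths of 0.395 to 2.15 only, and the median member, at 0.382, is shorter than its start. On the right the line is flat and the members lie on both sides of 0.

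Among small-subunit genes Mrps25 gave the plainest result. Mrps25 (chr6, 92169525 to 92184033, minus strand), a protein of the small subunit that bacteria lack, had 11.0, 11.7 and 12.7 CPM in fasted livers at 14 h, against 25.0, 22.2 and 24.5 CPM in ad libitum livers. The 3 fasted libraries lay close together, all well under the lowest ad libitum library. Its log2 fold change was -1.02 ± 0.18 (SE, adjusted p = 1.7e-04), and -1.05 with the trend removed. The gene overlaps Nr2c2 on the opposite strand by 4770 bases. The libraries were non-directional, so reads from bases that both transcripts share cannot be assigned by strand. Overlap was taken from whole gene bounds, introns included, so it does not give the share of such reads. Of 78 members 23 overlap a gene on the opposite strand, among 26 that overlap any protein-coding gene of the table. Their overlaps run from 30 bases for Mrpl36 to 39946 bases for Mrpl33. Mrps27 (chr13, 99344786 to 99415562, plus strand), a pentatricopeptide repeat protein that binds RNA, overlaps no other protein-coding gene of the table. It had 21.2, 19.9 and 28.4 CPM in fasted livers, against 40.1, 36.7 and 42.7 CPM in ad libitum livers. All fasted libraries were below all ad libitum libraries, and the fold change was -0.78 ± 0.20 (SE, adjusted p = 0.0056), and -0.56 (adjusted p = 0.043) with the trend removed.

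Mrps7, whose bacterial counterpart organises the head of the small subunit, had 39.1, 39.0 and 33.3 CPM in fasted livers and 71.8, 57.3 and 82.8 CPM in ad libitum livers at 14 h. The groups stood apart, with a fold change of -0.93 ± 0.19 (SE, adjusted p = 8.2e-04). It overlaps Gga3 and Mif4gd on the opposite strand. Mrps24, counterpart of a bacterial protein at the entry of the messenger RNA, had 19.6, 18.5 and 13.8 CPM in fasted and 38.1, 29.6 and 56.6 CPM in ad libitum livers. The fold change of -1.26 ± 0.28 (SE, adjusted p = 0.0018) shrank to -0.49 (adjusted p = 0.027) with the trend removed, and the gene shares its strand with the overlapping Urgcp.

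Mrps16 and Mrps21, a pair of short small-subunit genes with bacterial counterparts, fell by 1.52 ± 0.32 and 1.31 ± 0.34 on the log2 scale (SE). Mrps16 had 9.34, 7.51 and 6.41 CPM in fasted and 23.5, 12.9 and 30.6 CPM in ad libitum livers, and Mrps21 had 14.2, 10.4 and 11.2 CPM in fasted and 30.6, 18.7 and 39.9 CPM in ad libitum livers. In both genes ad libitum replicate 2 was the lowest of its group and replicate 3 the highest, as in the summed level. Once the trend was removed their fold changes were -0.40 (adjusted p = 0.059) and -0.09 (adjusted p = 0.70), past no threshold. Mrps21 was also not called without AL_14h replicate 3 (adjusted p = 0.053).

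In the large subunit, Mrpl14 (chr17, 45686322 to 45698495), which sits at the interface where assembly factors such as Malsu1 bind and whose gene overlaps Tmem63b on the opposite strand, had the largest fall of any member. It had 15.7, 16.9 and 12.4 CPM in fasted livers at 14 h, against 50.7, 38.3 and 93.2 CPM in ad libitum livers. The fasted libraries agreed closely and the ad libitum libraries did not, yet the groups stood apart (-2.02 ± 0.45, SE, adjusted p = 0.0017). Removing the trend left a fold change of -0.96 (adjusted p = 0.0057), a difference of more than 1 on the log2 scale from the value as counted. Mrpl23 (chr7, 142532686 to 142540747), at the exit of the peptide tunnel, had 13.6, 12.9 and 10.3 CPM in fasted and 45.3, 21.2 and 42.7 CPM in ad libitum livers. Its fold change was -1.57 ± 0.26 (SE, adjusted p = 1.1e-04), and -0.61 (adjusted p = 0.0042) with the trend removed. Mrpl49, a protein without bacterial counterpart whose gene overlaps Syvn1 on the opposite strand, had 17.9, 18.4 and 17.4 CPM in fasted and 34.9, 24.0 and 30.5 CPM in ad libitum livers. It fell by 0.73 ± 0.17 on the log2 scale (SE, adjusted p = 0.0023). These 3 and the small-subunit genes Mrps7, Mrps24, Mrps25 and Mrps27 were the 7 of 38 that stayed called in every alternative fit and with any library left out.

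Mrpl52, the shortest member, had 13.7, 12.8 and 9.35 CPM in fasted and 43.7, 29.3 and 45.4 CPM in ad libitum livers at 14 h. The groups were far apart (-1.72 ± 0.31, SE, adjusted p = 2.5e-04), but with the trend removed the fold change was -0.45 (adjusted p = 0.15). Mrpl50 had 29.9, 28.9 and 30.8 CPM in fasted and 58.5, 40.3 and 79.0 CPM in ad libitum livers. Its fold change of -0.99 ± 0.26 (SE, adjusted p = 0.0059) was -0.83 (adjusted p = 0.021) with the trend removed, and the call was lost without AL_14h replicate 3 (adjusted p = 0.071). Of the others called both ways, Mrpl35 was not called without AL_14h replicate 3 or F_14h replicate 2, and Mrpl57 without AL_14h replicate 1 or 3 or F_14h replicate 1 or 2.

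Members with defined tasks in translation were not all called, and no test compared members with each other. Of the stalk genes, Mrpl10, which anchors the stalk, had 33.0, 32.5 and 33.5 CPM in fasted and 57.6, 42.2 and 50.0 CPM in ad libitum livers (-0.60 ± 0.16, SE, adjusted p = 0.0077), and -0.33 (adjusted p = 0.081) with the trend removed. It was not called without AL_14h replicate 1 (adjusted p = 0.057). Mrpl12 had 83.3, 67.7 and 69.4 CPM in fasted and 124, 81.6 and 140 CPM in ad libitum livers. It was called lower (-0.65 ± 0.22, SE, adjusted p = 0.030) although the groups overlapped, and it was not called without AL_14h replicate 1 or 3 or F_14h replicate 2 or 3, nor with the trend removed (-0.14). Mrpl11, at the base of the stalk, had 21.3, 15.6 and 13.6 CPM in fasted and 23.6, 17.7 and 38.9 CPM in ad libitum livers, and the groups overlapped (adjusted p = 0.061). Its means were 16.8 CPM in fasted and 26.7 CPM in ad libitum livers, so it too was lower on average, like Mrpl10 and Mrpl12, without being called.

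Mrpl58, which releases stalled peptides, had 20.6, 17.8 and 19.0 CPM in fasted and 37.7, 26.6 and 40.2 CPM in ad libitum livers. Its fold change was -0.86 ± 0.17 (SE, adjusted p = 6.2e-04), and -0.19 (adjusted p = 0.26) with the trend removed. Mrps12, of the decoding centre, had 14.3, 19.1 and 17.5 CPM in fasted and 26.1, 25.5 and 34.9 CPM in ad libitum livers. It was called lower on the counts (-0.76 ± 0.21, SE, adjusted p = 0.0090) and stood at 0.13 (adjusted p = 0.73) with the trend removed. Mrpl2, beside the peptidyl transferase centre, had 29.4, 29.6 and 24.7 CPM in fasted and 36.8, 37.5 and 50.3 CPM in ad libitum livers, with -0.57 ± 0.19 (SE, adjusted p = 0.027) on the counts and 0.07 with the trend removed. Mrpl44, which has an RNase III fold and overlaps Wdfy1 on the opposite strand, had 16.0, 15.7 and 14.8 CPM in fasted and 19.8, 18.8 and 28.4 CPM in ad libitum livers, with -0.53 ± 0.16 (SE, adjusted p = 0.014) and -0.11. For these 4 the called fall was present only before the trend was removed. Without AL_14h replicate 3, Mrps12 (adjusted p = 0.074), Mrpl2 (adjusted p = 0.18) and Mrpl44 (adjusted p = 0.18) were not called. Mrps12 also lost its call without F_14h replicate 1, Mrpl2 without F_14h replicate 1 or 3 and Mrpl44 without F_14h replicate 3.

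Other members with known roles were not called. Mrpl45, which ties the ribosome to the inner membrane, had 28.3, 22.5 and 25.4 CPM in fasted and 31.9, 22.1 and 29.2 CPM in ad libitum livers at 14 h (-0.13 ± 0.17, SE, adjusted p = 0.63). Mrpl3, a core protein of the large subunit, had 23.9, 16.7 and 16.4 CPM in fasted and 16.2, 15.5 and 29.4 CPM in ad libitum livers (-0.10 ± 0.20, SE, adjusted p = 0.75). Mrps5, known from work on longevity in mice and worms, had 37.5, 42.9 and 33.5 CPM in fasted and 25.8, 40.0 and 35.3 CPM in ad libitum livers (0.17 ± 0.20, SE, adjusted p = 0.58). In these 3 the groups overlapped, and no difference was detected at this number of libraries.

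Mrps18a, Mrps18b and Mrps18c are paralogs of each other, and reads could be shared where their sequences match. None was called on the counts at 14 h. Mrps18a had 18.7, 19.5 and 21.1 CPM in fasted and 24.8, 21.9 and 32.7 CPM in ad libitum livers, and Mrps18c had 16.9, 14.9 and 11.6 CPM in fasted and 19.8, 15.3 and 30.7 CPM in ad libitum livers. Mrps18b had 56.6, 34.5 and 37.9 CPM in fasted and 44.3, 33.0 and 41.0 CPM in ad libitum livers, with a fold change of 0.12 ± 0.24 (SE, adjusted p = 0.74). After removal of the trend Mrps18b was 1 of the 2 members called higher, at 0.74 (adjusted p = 0.032), together with Mrpl40 at 0.44 (adjusted p = 0.040). Mrps36 had 4.86, 3.89 and 4.91 CPM in fasted and 7.98, 7.54 and 9.38 CPM in ad libitum livers, with -0.86 ± 0.28 (SE, adjusted p = 0.025) on the counts and 0.05 with the trend removed. It was not called without AL_14h replicate 3 or any of the 3 fasted libraries.

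Other genes of mitochondrial translation were called in both directions at 14 h. Of 5 tested mitoribosomal proteins whose symbols lie outside the rule, 4 fell and 0 rose, led by Chchd1 at -1.28 ± 0.47, Gadd45gip1 at -1.24 ± 0.23 and Aurkaip1 at -1.0 ± 0.20 (SE). Of 15 translation factors, 1 rose and 3 fell: Lrpprc, which stabilises mitochondrial messenger RNA, at 0.93 ± 0.22, and Slirp, its partner, at -1.30 ± 0.46, with Mtfmt, which formylates the initiator tRNA, at -0.77 ± 0.19 and the recycling factor Mrrf at -0.63 ± 0.20 (SE). Of 21 assembly and rRNA modification genes, 2 rose and 6 fell, the helicases Ddx28 (0.71 ± 0.20) and Dhx30 (0.57 ± 0.15) being the 2 that rose and Malsu1 (-1.04 ± 0.37) the largest fall. Of 20 mitochondrial aminoacyl-tRNA synthetase genes 1 rose and 5 fell, with Lars2 at -0.87 ± 0.24 (SE). Of 14 regulators of mitochondrial transcription and biogenesis 5 rose and 0 fell, with the coactivators Ppargc1a at 1.35 ± 0.42, Ppargc1b at 1.14 ± 0.33 and Pprc1 at 0.95 ± 0.32 (SE). Of all 13786 genes tested, 1627 rose. The medians of these lists were -1.0, -0.09, -0.24, -0.22 and 0.27 in that order, beside -0.63 for the members. Several of these calls were lost once the length trend was removed. The proteins outside the rule then had 2 lower, the translation factors 3 higher and 2 lower, the assembly genes 2 higher and 1 lower, the synthetases 1 lower and the regulators 1 higher. The medians were then -0.17, -0.04, -0.14, -0.24 and 0.30. Ppargc1a stood at 0.90 (adjusted p = 0.094), Pprc1 at 0.65 (adjusted p = 0.16), Dhx30 at 0.35 (adjusted p = 0.075), Chchd1 at -0.15 (adjusted p = 0.74), Slirp at -1.17 (adjusted p = 0.073) and Malsu1 at -0.83 (adjusted p = 0.11), past no threshold. The other genes named here were called with the trend removed too.

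Other short-gene families were lower as well. Of 83 cytosolic ribosomal protein genes 68 fell and 0 rose, with a median of -1.25. Of 80 nuclear genes for respiratory chain and ATP synthase subunits, which work beside the products of the mitochondrial ribosome, 36 fell and 2 rose, with a median of -0.76. Of 13 messenger RNAs encoded in mitochondrial DNA 5 fell and 0 rose, with a median of -0.78. With the trend removed the cytosolic list had 12 lower and 1 higher at a median of -0.34, the respiratory list had 2 lower and 7 higher at 0.13, and the mitochondrially encoded list 0 lower and 1 higher at -0.11.

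The ad libitum library AL_14h replicate 3 had the most weight in the count at 14 h. The count was 15 without it, 24 without F_14h replicate 2 and 20 without F_14h replicate 3, and it was highest at 51, without AL_14h replicate 2. The share of all genes called in fits with a library left out is not given, here or below. These counts therefore do not show whether members moved more than other genes. Beside this, 5 of 7 markers of sinusoidal endothelium were called higher in fasted livers at 14 h, with sums of 239 to 304 CPM in fasted and 77.9 to 179 CPM in ad libitum livers. The hepatocyte markers, of which 2 were called higher and 1 lower, summed to between 91719 and 111396 CPM in fasted and 130636 and 139110 CPM in ad libitum livers. Hepatocyte sums, here and below, mainly follow Alb, which had 47532 to 137039 CPM over all libraries. No other hepatocyte marker passed 12417 CPM, so the sums do not describe the markers as a set. The part of the cell make-up in the member values was not tested.

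At 6 h only Mrps27 fell (1.13% of all genes fell), and 68 of 78 members had a fold change below 0, with a median of -0.30. Mrps27 had 20.2, 16.7 and 18.1 CPM in fasted livers, against 40.2 and 29.7 CPM in ad libitum livers. The groups did not overlap, and the fold change was -0.93 ± 0.22 (SE, adjusted p = 0.018). It was again, after removal of the trend, the single member called lower (-0.88, with 1.5% of all genes lower), and the median was -0.07. The call rests on few libraries. Without AL_6h replicate 1 (adjusted p = 0.37), F_6h replicate 2 (adjusted p = 0.099) or F_6h replicate 3 (adjusted p = 0.055) edgeR called 0 members. In the fit to all libraries 12 of 78 members had an unadjusted p below 0.05. So did 1984 of the 13786 genes tested, a similar share. DESeq2 called 3 members, and the share of all genes it called is not given. Mrps6 had 4.62, 4.96 and 4.80 CPM in fasted and 9.56 and 9.25 CPM in ad libitum livers at 6 h (adjusted p = 0.057). Of the regulators, 2 of 14 rose at 6 h, Ppargc1b at 1.52 ± 0.38 and Tfb2m, a mitochondrial transcription factor, at 0.61 ± 0.17 (SE), and Ddx28 rose at 1.05 ± 0.23. Of all 13786 genes tested, 166 rose at 6 h.

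At 22 h 11 members fell and 0 rose, against 5.4% of all genes lower, and the median was -0.41. Of the 11, 7 were Mrpl and 4 Mrps genes. The median was -0.04 once the trend was removed, and 2 members were lower (3.37% of all genes) and 2 higher (4.37% of all genes). The 2 called lower both ways were Mrps6 and Mrpl23. Mrps6 (chr16, 92058270 to 92112227), a small-subunit protein with a bacterial counterpart, had 4.30, 3.99 and 4.67 CPM in fasted livers at 22 h, against 10.2, 11.0 and 9.32 CPM in ad libitum livers. Both groups were tight and far apart (-1.23 ± 0.26, SE, adjusted p = 0.0026), and the fold change was -0.71 (adjusted p = 0.019) with the trend removed. Slc5a3 lies in the same region on the same strand, so counts could be shared. Mrps6 was low in fasted livers at 14 h too, at 5.44, 4.33 and 4.75 CPM against 11.2, 7.35 and 10.5 CPM in ad libitum livers (-1.0, adjusted p = 0.0054), but there the value with the trend removed was -0.20 (adjusted p = 0.52).

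Mrpl23 had 11.0, 12.6 and 15.9 CPM in fasted and 31.9, 23.9 and 29.1 CPM in ad libitum livers at 22 h. The groups did not overlap (-1.10, adjusted p = 0.0060), and with the trend removed the value was -0.50 (adjusted p = 0.028). Without F_22h replicate 1 the adjusted p was 0.0501. Mrpl52 had 14.0, 11.4 and 20.8 CPM in fasted and 41.7, 28.3 and 30.8 CPM in ad libitum livers, and Mrps16 had 9.41, 6.66 and 12.6 CPM in fasted and 23.0, 18.0 and 20.1 CPM in ad libitum livers. They fell by 1.12 ± 0.30 and 1.09 ± 0.31 on the log2 scale (SE, adjusted p = 0.016 and 0.022). Neither was called with the trend removed (-0.33 and -0.43), without AL_22h replicate 1 or without F_22h replicate 1 or 2, and Mrps16 also not without AL_22h replicate 3. The 2 members called higher with the trend removed were Mrpl17 at 0.65 ± 0.16 and Mrps9 at 0.54 ± 0.17 (SE), which on the counts stood at 0.31 and 0.24, past no threshold.

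The count at 22 h was 2 without AL_22h replicate 1, 4 without AL_22h replicate 3, 1 without F_22h replicate 1 and 2 without F_22h replicate 2, so it depended on single libraries of both diets. In the shortest length class 10 of 58 members and 12.7% of all genes fell. Of the regulators 3 of 14 rose at 22 h, Ppargc1a at 1.78 ± 0.42, Ppargc1b at 1.14 ± 0.34 and Gabpa, whose motif is shown above, at 0.65 ± 0.21 (SE). Of all 13786 genes tested, 836 rose at 22 h. Of the cytosolic ribosomal protein genes 7 of 83 fell and of the respiratory chain genes 4 of 80 fell and 1 rose. Once the trend was removed, Gabpa stood at 0.44 (adjusted p = 0.12) and was not called, while Ppargc1a (1.42) and Ppargc1b (1.03) were. The cytosolic list then had 5 lower and 2 higher at a median of -0.07, and the respiratory list 1 lower and 5 higher at 0.26. Of the cell markers at 22 h, 1 of 7 hepatocyte markers was called lower, with sums of 72916 to 118134 CPM in fasted and 79118 to 114770 CPM in ad libitum livers. Endothelial markers, 1 of 7 called higher, summed to 167 to 269 CPM in fasted and 172 to 248 CPM in ad libitum livers. Stellate cell markers, 1 of 7 called higher, summed to 315.8 to 353.9 CPM in fasted and 288.2 to 301.2 CPM in ad libitum livers. Their part in the member values was not tested. Whether the fasting effect changed with time was tested directly: 0 members were called by edgeR (0.0653% of all genes), 0 had an unadjusted p below 0.05, DESeq2 and limma called 0, and the lowest adjusted p was 0.613. The different counts at 6, 14 and 22 h are thus no test of a difference between times.

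**Figure D4:**
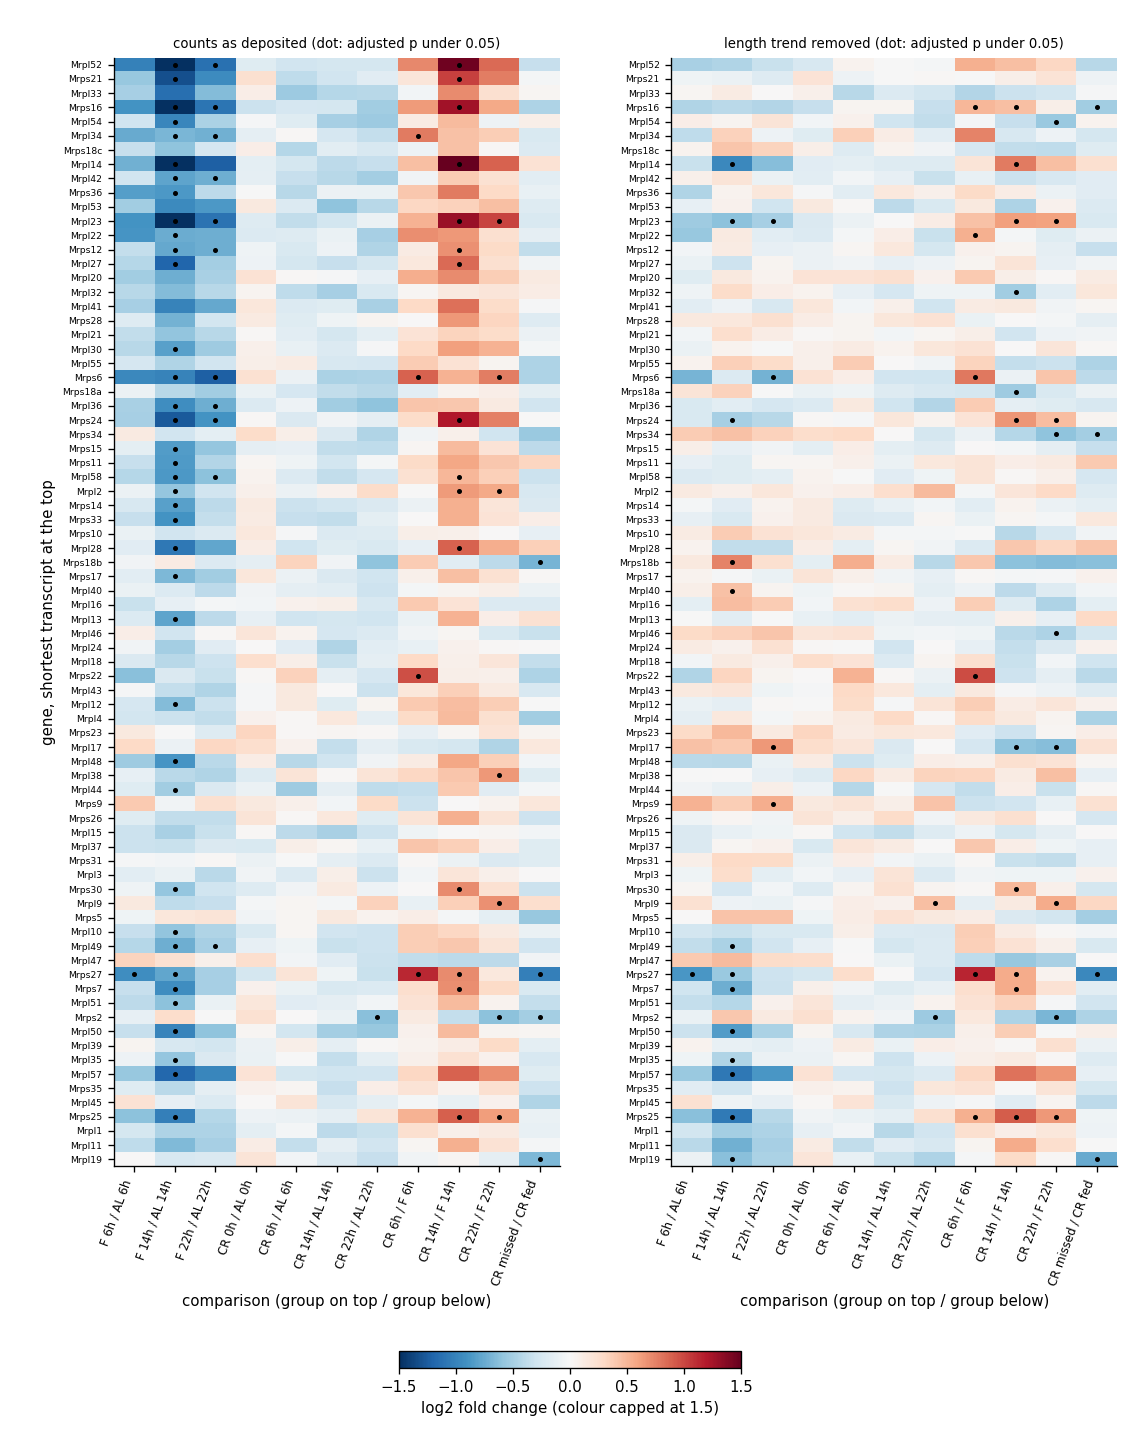
Log2 fold change of each of the 78 members (rows, shortest transcript at the top) in the 11 comparisons (columns), on the counts as deposited (left) and with the length trend removed (right); blue is lower and red higher in the group named first, and dots mark adjusted p below 0.05. On the left the fasted columns are mostly blue, most of all in the upper rows at 14 h, and on the right most of that blue is gone while Mrps27, Mrps25, Mrpl14 and Mrpl23 stay blue.

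Calorie-restricted and ad libitum livers were compared at the same clock labels, which asks whether the diet itself changed these genes. At 0, 6 and 14 h edgeR called 0 members. At 0 h 0.479% of all genes were called, the member median was 0.02 on the log2 scale and 0 of 78 members had an unadjusted p below 0.05. At 6 h 0 genes of the whole table were called (a share of 0), the median was -0.09 and 1 member had an unadjusted p below 0.05. At 14 h 0.0218% of all genes were called, the median was -0.21 and 5 members had an unadjusted p below 0.05. An unadjusted p below 0.05 was reached by 1483, 568 and 1330 of the 13786 tested genes at 0, 6 and 14 h. DESeq2 and limma also called 0 members at these 3 times. On the counts the fold changes spanned -0.33 to 0.32 at 0 h, -0.54 to 0.35 at 6 h and -0.61 to 0.16 at 14 h. With the length trend removed edgeR again called 0 members at each of these times. The member medians were then 0.02 at 0 h, 0.04 at 6 h and -0.04 at 14 h.

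At 22 h Mrps2, a small-subunit protein with a bacterial counterpart near the messenger RNA exit, fell in calorie-restricted livers (2.31% of all genes fell). It had 27.8, 22.5, 31.0 and 19.2 CPM in calorie-restricted livers, against 38.5, 41.7 and 36.1 CPM in ad libitum livers. The groups did not overlap, with a fold change of -0.63 ± 0.16 (SE, adjusted p = 0.021). After removal of the trend Mrps2 was lower (2.47% of all genes) at -0.55 (adjusted p = 0.033) and Mrpl9, of the large subunit, was called higher (3.3% of all genes) at 0.46 (adjusted p = 0.049). The call of Mrps2 was lost without AL_22h replicate 1, 2 or 3 or CR_22h replicate 2 or 4 (adjusted p = 0.077, 0.079, 0.053, 0.055 and 0.089 in that order). AL_22h replicate 2 is a library whose clock genes ran opposite to its group. In this comparison 2 of 5 Kupffer cell markers were called lower, with sums of 78.5 to 227 CPM in calorie-restricted and 233 to 313 CPM in ad libitum livers, and their part was not tested. A change of the restriction effect over time was called for 0 members by edgeR, DESeq2 and limma (0.442% of all genes). By edgeR 1 member, Mrps2, had an unadjusted p below 0.05, and the lowest adjusted p was 0.243.

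Calorie-restricted livers were next set against fasted livers that carry an equal hour label. Whether the restricted mice were without food at these hours, and for how long, is not given in the labels. The values therefore describe a difference between labelled groups and not between fasts of known length. The fasted libraries are those used above, so these values share them with the comparisons against ad libitum livers. At 6 h 4 members rose in calorie-restricted livers (3.39% of all genes rose), with a median of 0.15. Mrps27 had 48.5, 41.0 and 30.5 CPM in calorie-restricted and 20.2, 16.7 and 18.1 CPM in fasted livers (1.13 ± 0.20, SE, adjusted p = 6.4e-04). Mrps22, a small-subunit protein that bacteria lack, had 27.4, 29.2 and 27.4 CPM in calorie-restricted and 11.9, 15.2 and 15.8 CPM in fasted livers (0.97 ± 0.21, SE, adjusted p = 0.0044). Both pairs of groups stood well apart, and both genes stayed called in every alternative fit and with any library left out.

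Mrps6 had 7.64, 6.48 and 12.5 CPM in calorie-restricted and 4.62, 4.96 and 4.80 CPM in fasted livers at 6 h, and Mrpl34, a short protein of the large subunit, had 40.6, 26.9 and 36.1 CPM in calorie-restricted and 18.2, 21.8 and 20.3 CPM in fasted livers. Their fold changes were 0.89 (adjusted p = 0.030) and 0.78 (adjusted p = 0.047). Both calls were lost without CR_6h replicate 1 or 3 or any of the 3 F_6h libraries, and in each of these 5 fits the member count was 2. The median differed little with the length trend removed: 6 members rose (4.64% of all genes) at a median of 0.09, adding Mrpl22 at 0.53, Mrps16 at 0.50 and Mrps25 at 0.53 and losing Mrpl34 (0.74, adjusted p = 0.073). Among the regulators 3 of 14 fell on the counts, Myc at -1.69 ± 0.45, Ppargc1b at -1.46 ± 0.33 and Tfb2m at -0.65 ± 0.15 (SE). Of all 13786 genes tested, 470 fell.

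At 14 h 15 members rose in calorie-restricted livers and 0 fell (9.1% of all genes rose), with a median of 0.44. The groups of libraries overlapped in none of the 15. They did not overlap either in 95.7% of all genes called here, and, called or not, in 34 of 78 members and 32.4% of all genes. With the trend removed 8 were higher (6.9% of all genes) and 3 lower (6.45% of all genes), with a median of 0.01, and all 8 were among the 15. Mrpl23 had 22.4, 28.5 and 39.5 CPM in calorie-restricted and 13.6, 12.9 and 10.3 CPM in fasted livers (1.30 as a log2 fold change). Mrps24 had 29.8, 38.1 and 51.6 CPM in calorie-restricted and 19.6, 18.5 and 13.8 CPM in fasted livers (1.2 ± 0.28, SE, adjusted p = 0.0037). Mrps25 had 17.2, 21.1 and 27.2 CPM in calorie-restricted and 11.0, 11.7 and 12.7 CPM in fasted livers (0.89). These 3 stayed called in every alternative fit and with any library left out. In each of them CR_14h replicate 3, which lay closest to an ad libitum library, was the highest.

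Mrpl14 had 28.3, 30.0 and 80.1 CPM in calorie-restricted and 15.7, 16.9 and 12.4 CPM in fasted livers at 14 h (1.62 ± 0.44, SE, adjusted p = 0.011). It was 0.96 (adjusted p = 0.15) without CR_14h replicate 3 and also not called without F_14h replicate 3 (adjusted p = 0.054). Mrps27 had 37.0, 45.3 and 31.7 CPM in calorie-restricted and 21.2, 19.9 and 28.4 CPM in fasted livers (0.71 ± 0.20, SE, adjusted p = 0.014), and lost its call without CR_14h replicate 2 or F_14h replicate 1 or 2. Mrps30 had 26.4, 39.9 and 25.0 CPM in calorie-restricted and 20.1, 19.3 and 16.2 CPM in fasted livers (0.71 ± 0.17, SE, adjusted p = 0.0041), and lost its call without CR_14h replicate 2 (adjusted p = 0.062). The count of 15 was 6 without CR_14h replicate 3, 9 without CR_14h replicate 2 and 7 without F_14h replicate 3.

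The lower members with the trend removed at 14 h were Mrpl17 at -0.60, Mrpl32 at -0.52 and Mrps18a at -0.53, which on the counts stood at -0.27, 0.15 and 0.06 with no call. Of 83 cytosolic ribosomal protein genes 58 rose and of 80 respiratory chain genes 21 rose, at medians of 1.14 and 0.61. Lars2 rose at 1.32 ± 0.25 and Gadd45gip1 at 1.04 ± 0.23, while Ppargc1b at -1.92 ± 0.34 and Ppargc1a at -1.20 ± 0.41 fell (SE). After the trend was removed, 29 cytosolic genes were higher at a median of 0.50, and 4 respiratory chain genes were higher and 1 lower at a median of 0.03. Ppargc1a was then not called (-0.92, adjusted p = 0.091), while Lars2, Gadd45gip1 and Ppargc1b were. In this comparison 2 of 7 endothelial markers were called lower, with sums of 174 to 269 CPM in calorie-restricted and 239 to 304 CPM in fasted livers. Hepatocyte markers summed to between 120704 and 161357 CPM in calorie-restricted and 91719 and 111396 CPM in fasted livers. Their part in the member values was not tested.

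At 22 h 6 members rose in calorie-restricted livers (5.13% of all genes rose) and 1 fell (4.32% of all genes fell), with a median of 0.20. Mrpl23 had 22.0, 26.4, 33.4 and 25.0 CPM in calorie-restricted and 11.0, 12.6 and 15.9 CPM in fasted livers (1.02, adjusted p = 0.0075). The groups did not overlap, but the call was lost without F_22h replicate 1 (adjusted p = 0.069). Mrpl9 had 40.6, 57.4, 42.4 and 49.7 CPM in calorie-restricted and 28.2, 26.0 and 34.0 CPM in fasted livers (0.69 ± 0.16, SE, adjusted p = 0.0069). It overlaps Oaz3. Mrpl38 had 61.9, 79.6, 49.0 and 58.5 CPM in calorie-restricted and 43.9, 40.3 and 35.2 CPM in fasted livers (0.65 ± 0.16, SE, adjusted p = 0.0074). With the trend removed Mrpl9 stayed called at 0.56 (adjusted p = 0.0098) and Mrpl38 did not, at 0.45 (adjusted p = 0.099).

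Mrps25 had 22.0, 23.5, 21.5 and 16.7 CPM in calorie-restricted and 14.4, 12.7 and 13.5 CPM in fasted livers at 22 h (0.63 ± 0.17, SE, adjusted p = 0.014). On the authors' rescaled TPM, with limma, the same difference was 0.12 (adjusted p = 0.75), so the counts and the values per length disagree for this gene, and without F_22h replicate 2 the call on counts was lost (adjusted p = 0.057). Mrps2 was the member that fell: its 27.8, 22.5, 31.0 and 19.2 CPM in calorie-restricted livers stood against 42.5, 38.0 and 35.1 CPM in fasted livers (-0.62, adjusted p = 0.012), and the call was lost without F_22h replicate 1 (adjusted p = 0.087). Removing the trend left 4 members higher (5.29% of all genes) and 5 lower (4.79% of all genes), at a median of -0.03. Besides Mrps2 the lower ones were Mrpl17 at -0.64, Mrps34 at -0.61, Mrpl54 at -0.56 and Mrpl46 at -0.46. The count of 7 was 3 without F_22h replicate 1 and 4 without F_22h replicate 2. None of the 7 stayed called both in every alternative fit and with any library left out. Mrpl23 stayed called in every alternative fit and lost its call only without F_22h replicate 1. Hepatocyte markers, with 1 of 7 called higher and 1 lower, summed to between 99850 and 165106 CPM in calorie-restricted and 72916 and 118134 CPM in fasted livers, and their part was not tested.

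Calorie-restricted mice that missed a meal were set against fed ones at zeitgeber time 18, which asks how the absence of a meal acted. Here 4 members fell and 0 rose (6.13% of all genes fell), with a median of -0.17. Mrps27 had 25.4, 18.1 and 20.8 CPM after the missed meal, against 43.2, 38.9 and 48.5 CPM after feeding. Every missed-meal library was far below every fed library, with -1.02 ± 0.20 (SE, adjusted p = 0.0012), and -0.96 (adjusted p = 0.0010) with the trend removed. Of the 4, Mrps27 alone stayed called in every alternative fit and with any library left out. Mrpl19, the longest member, had 12.4, 11.3 and 11.0 CPM after the missed meal and 19.7, 16.6 and 19.0 CPM after feeding (-0.67 ± 0.18, SE, adjusted p = 0.013), and -0.76 with the trend removed. It overlaps Gcfc2, and its call was lost without CR_fed replicate 1 (adjusted p = 0.054) or CR_missed replicate 3 (adjusted p = 0.064).

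Mrps2 had 42.8, 35.5 and 34.4 CPM after the missed meal and 51.1, 59.0 and 50.7 CPM after feeding (-0.51, adjusted p = 0.045). Mrps18b had 33.7, 24.9 and 37.8 CPM after the missed meal and 61.0, 37.9 and 57.2 CPM after feeding (-0.70, adjusted p = 0.0499). Both were close to the threshold and not called with the trend removed (adjusted p = 0.057 and 0.070). Mrps2 lost its call without CR_fed replicate 1, 2 or 3 or CR_missed replicate 2 or 3, and Mrps18b without any 1 of CR_fed replicates 1 and 3 and CR_missed replicates 1, 2 and 3. With the trend removed 4 members were called lower (6.99% of all genes): Mrps27, Mrpl19, Mrps16 at -0.52 and Mrps34 at -0.51. With a replicate block 8 members were called in place of 4. The share of all genes called with the block is not given, so this is not a result about the members alone. Same-numbered libraries deviated together in this comparison, but the block is shared by all groups of the model and does not pair these libraries alone. The count was 1 without CR_fed replicate 1, 2 without CR_fed replicate 3, 2 without CR_missed replicate 2 and 1 without CR_missed replicate 3.

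Around the members, 4 of 20 aminoacyl-tRNA synthetase genes fell after the missed meal, with Qrsl1 at -1.19 ± 0.33, Cars2 at -0.83 ± 0.21 and Aars2 at -0.73 ± 0.19 (SE). Of 14 regulators 2 rose, Tfb2m at 0.91 ± 0.15 and Yy1 at 0.58 ± 0.17, and of 21 assembly genes 1, Ddx28 at 0.73 ± 0.20 (SE). The share of all genes that rose in this comparison is not given beside these counts. Of 83 cytosolic ribosomal protein genes 1 fell and 0 rose, at a median of 0.13. All 3 erythroid markers were called higher after the missed meal, with sums of 3133 to 9775 CPM, against 580 to 1440 CPM after feeding. Endothelial markers, 2 of 7 called higher, summed to 227 to 266 CPM after the missed meal and 146 to 179 CPM after feeding. Stellate cell markers, with 1 called higher and 1 lower, summed to 307.6 to 380.0 CPM and 226 to 254 CPM in the same order. The part of these cells in the member values was not tested.

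**Figure D5:**
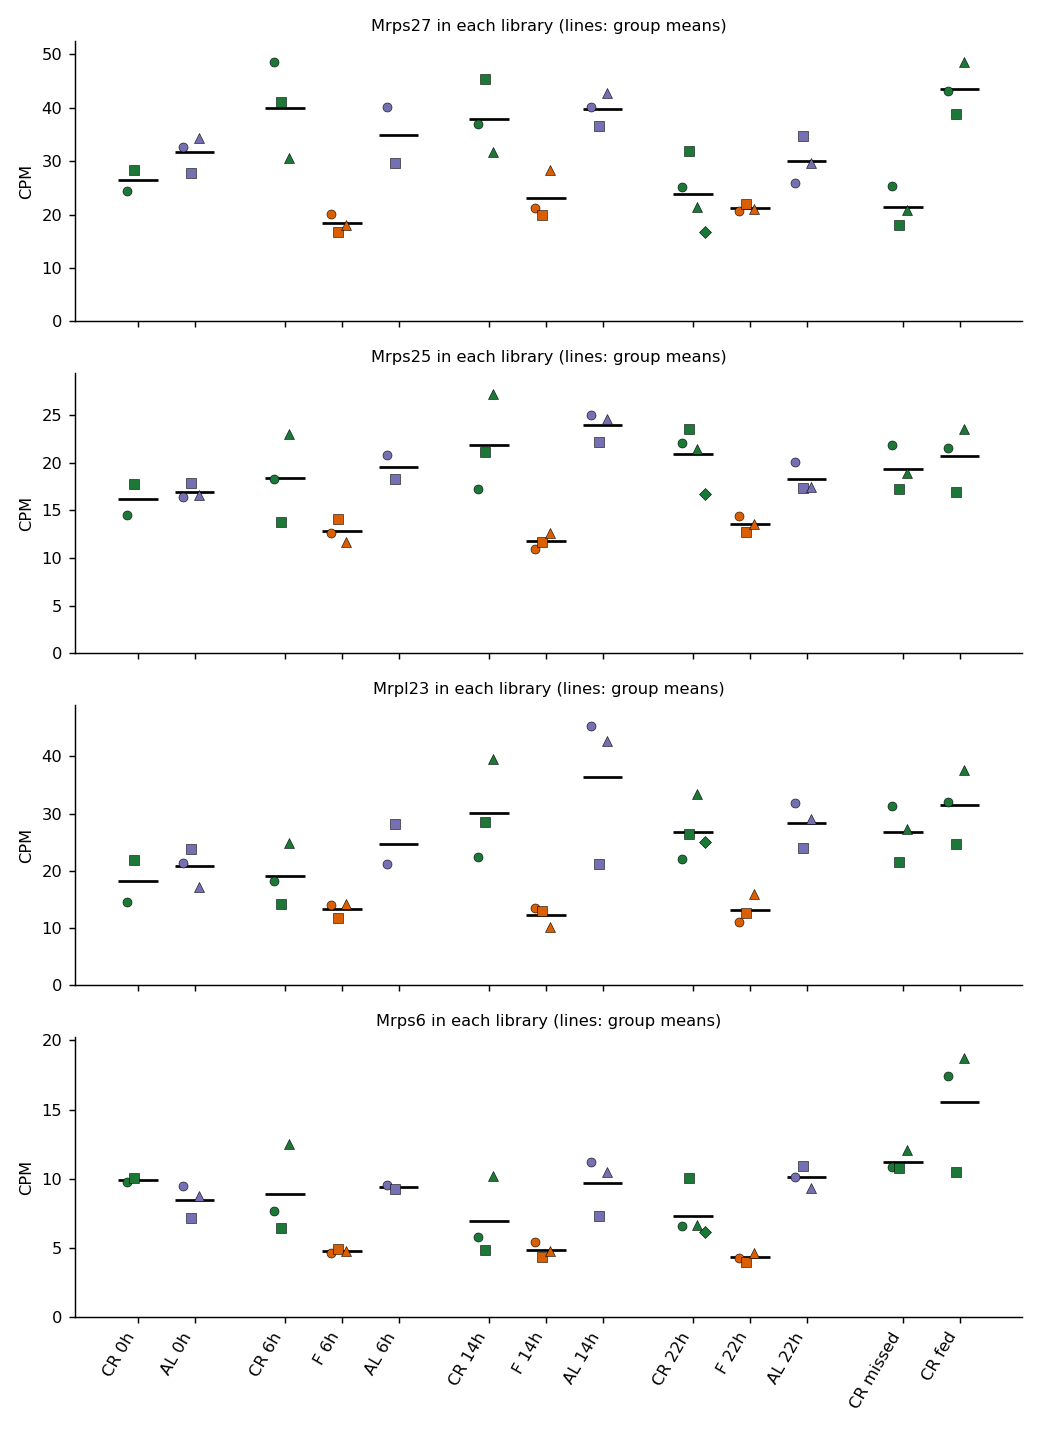
Level (CPM, linear axis from 0) of Mrps27, Mrpl23, Mrps25 and Mrps6 in every library, by group of diet and time; points are libraries, marker shapes are replicates and lines are group means. Mrps27 is low in all fasted groups and after the missed meal and highest in fed calorie-restricted livers, where its 3 libraries lie between 38.9 and 48.5 CPM.

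Mrps27 was the member called in the most comparisons, 5 of 11, ahead of Mrpl23 and Mrps6 with 4 each. Its 13 group means were led by fed calorie-restricted livers. The other groups, in time order, read as follows. In fasted livers at 22 h it had 20.7, 22.0 and 21.1 CPM, against 25.8, 34.7 and 29.7 CPM in ad libitum livers, a difference of -0.50 that was not called (adjusted p = 0.10). In calorie-restricted livers it had 24.4 and 28.4 CPM at 0 h, 48.5, 41.0 and 30.5 CPM at 6 h, 37.0, 45.3 and 31.7 CPM at 14 h and 25.2, 32.0, 21.4 and 16.7 CPM at 22 h. It was thus higher at 6 and 14 h than at 0 and 22 h in restricted livers, with overlap only through CR_22h replicate 2. In ad libitum livers at 0 h it had 32.7, 27.8 and 34.4 CPM.

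Change over time within a diet was tested last. In calorie-restricted livers 5 members changed over time (20.6% of all genes): Mrps2 (adjusted p = 9.0e-04), Mrpl19 (0.0057), Mrps27 (0.0078), Mrpl2 (0.013) and Mrps9 (0.033). Mrps2 had 46.6 and 53.8 CPM at 0 h, 42.2, 39.2 and 34.0 at 6 h, 31.4, 35.1 and 31.3 at 14 h and 27.8, 22.5, 31.0 and 19.2 at 22 h, so that every library at 0 h was above every later one. Mrpl2 had 25.9 and 37.1 CPM at 0 h, 25.6, 24.6 and 30.7 at 6 h, 37.1, 45.9 and 47.0 at 14 h and 46.4, 54.1, 34.1 and 39.3 at 22 h, so that its highest libraries were late ones. Removing the length trend gave 7 called members, without Mrpl2 (adjusted p = 0.072). The share of all genes called in that fit is not given. The count was 3 without CR_0h replicate 1 or CR_6h replicate 2.

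In ad libitum livers edgeR called 0 members over time (0.276% of all genes), with 17 at an unadjusted p below 0.05. The share of all genes at that unadjusted level is not given for this or the other tests over several groups. The lowest adjusted p was 0.107, for Mrpl58. DESeq2 called 1 and limma 0, and edgeR called 1 without AL_22h replicate 2, the library with deviant clock genes. In fasted livers edgeR, DESeq2 and limma called 0 (2.86% of all genes), with 3 at an unadjusted p below 0.05 in edgeR. Over all 13 groups together 49 members differed somewhere (52.8% of all genes), and 31 with the trend removed (48.5% of all genes).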

How the data were processed

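Non-directional libraries of polyadenylated liver RNA were, per the labels' protocols, sequenced as 150 bp paired reads. Per the labels, the authors used Bowtie with up to 2 mismatches against Ensembl GRCm38 coding genes, and deposited expected counts from RSEM 1.2.3. The second deposited table is a signal, TPM rescaled by the authors with EBSeq per the labels. A batch effect is mentioned in the labels without a batch being named, so none could be fitted.

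Expected counts were rounded. All 38 libraries (17131292 to 30152277 counts) entered 1 model of 13 groups in edgeR 4.0.16 (R 4.3.3), with filterByExpr, TMM scaling and the quasi-likelihood F test. Called means a Benjamini-Hochberg adjusted p below 0.05 over the 13786 tested genes. The standard error is the absolute fold change divided by the root of F. Effective length is count over TPM; 628 tested genes had none. The length trend is a lowess (span 0.3) of each library's log2 deviations on length, entered as offsets. The pipeline was tested on simulated data. Coordinates are GENCODE M21 on GRCm38.

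The 78 members, the gene lists and the tests were chosen with earlier results of these data known, and the list of mitochondrially encoded messenger RNAs was added afterwards. Members were named by a rule: those with the largest fold changes among called members without overlap between groups, those called in most comparisons, and members with known roles. Alternatives were DESeq2 1.42.0, its size factors, no filter, limma 3.58.1 on log2 of the signal plus 1 or 0.1, the compared libraries alone, a replicate block, and each library left out. Alternatives chosen after seeing the data left out 6 doubtful libraries or used annotated length. Same-numbered libraries deviated together only for the missed meal and feeding (correlations 0.144 to 0.200 in 3 pairs). The count with a block is therefore given beside that result. This pairing comes from the data and not the labels, and the main fit has no block. The block is a term for replicate number shared by all groups, so it is not a pairing within that comparison.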

Additional observations from a re-analysis of the deposited data

Results flagged for a closer look

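The level of Mrps6 in calorie-restricted livers at 22 h, replicate 2, was 10.03 CPM, far from the 6.61, 6.64 and 6.12 CPM of the other 3 libraries of its group. The gap to the nearest of them was 0.868 of the whole range, over Dixon's limit for 4 libraries. A total of 30 group values were looked at in this way, and chance alone sets apart about 1 in 20 groups. Without that library Mrps6 in calorie-restricted over fasted livers at 22 h was 0.58 (adjusted p = 0.16), against 0.77 (adjusted p = 0.042) with it. The call was also lost without CR_22h replicate 1 (adjusted p = 0.051), F_22h replicate 1 (0.13), 2 (0.13) or 3 (0.053), and with the length trend removed (0.41, adjusted p = 0.15). It held without CR_22h replicate 3 or 4 (adjusted p = 0.038 and 0.028).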

How the results depend on the processing

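Counts are of members called out of 78, and where a value moved the cause was not tested. The share of all genes called in the same fit is not given beside them, so a moved count is not a result about the members alone. Fits with annotated length, with block and trend together or without doubtful libraries were added after seeing the data. Fasted against ad libitum livers at 6 h gave 1 member, against 3 with DESeq2, 6 with a replicate block, 2 with each of the 3 limma fits, 7 with the compared libraries alone, 2 without the libraries nearest to another diet or all doubtful ones, and 2 with annotated length or with block and length trend together. At 14 h the 38 became 13 with the length trend removed, 24 with annotated length and 16 with block and trend, and at 22 h the 11 became 4, 3 and 7, and 20 with the block alone. Calorie-restricted against ad libitum livers at 22 h (1) gave 2 with the trend removed and 0 with the compared libraries alone or without the libraries of a deviant clock. Calorie-restricted against fasted livers gave 10 at 6 h (4) with block and trend, 6 at 14 h (15) with the compared libraries alone, without the libraries nearest to another diet or without all doubtful ones, and 1 at 22 h (7) with the compared libraries alone. The missed meal (4) gave 2 without a filter, 8 with the block, 7 with the compared libraries alone and 8 with block and trend. All groups (49) gave 31 with the trend removed. Time gave 1 in ad libitum livers (0) with DESeq2 or without deviant clocks, 2 and 9 in calorie-restricted livers (5) with the compared libraries alone and with block and trend, and 1 and 2 in fasted livers (0) with annotated length and with block and trend.

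Leaving out 1 library at a time gave 0 to 1 at 6 h, 15 to 51 at 14 h and 1 to 16 at 22 h for fasted against ad libitum livers. It gave 0 to 1 for restricted against ad libitum livers at 22 h, 2 to 6, 6 to 17 and 3 to 9 for restricted against fasted livers at 6, 14 and 22 h, 1 to 4 for the missed meal, 42 to 55 for all groups, 0 to 1 over time in ad libitum and 3 to 7 in restricted livers, and 0 throughout for the others. Outside the missed meal, libraries of the same number shared only a number. The replicate block there gave 40 at 14 h for fasted against ad libitum livers, 57 for all groups, 15 and 8 for restricted against fasted livers at 14 and 22 h, and moved no count by over 1.5 times other than those given above.

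Changes of sign were looked at only for members called on the counts. Among the 38 called lower in fasted livers at 14 h, 8 changed sign with the length trend removed (with annotated length, with block and trend): Mrpl2 0.075 (0.082, 0.073), Mrpl22 0.14 (0.13, 0.14), Mrpl34 0.35 (0.17, 0.37), Mrps12 0.13 (0.080, 0.13) and Mrps36 0.050 (0.018, 0.068). Mrpl30 (0.049, 0.050), Mrpl42 (0.20, 0.19) and Mrpl54 (0.036, 0.041) did so without and with the block only. None of the 8 was called with the trend removed. Of the other values of called members over all alternatives, 1207 kept their call and 399 lost it in the same direction. Of the member medians, 201 moved by less than the spread and 18 by more. The lowest count of a member in any library was 56, and groups held 2 to 4 libraries.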
